A study of Mus musculus with 6 samples.

Results

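The gasdermin family was examined in total RNA-Seq of colonic crypts through 6 genes, *Gsdmc*, *Gsdmc2*, *Gsdmc3*, *Gsdmc4*, *Gsdmd* and *Gsdme*, taken by name from a table of 18049 genes. The table as analysed here held 5 of the 6; *Gsdmc* itself was not analysed here. *Gsdmc2*, *Gsdmc3* and *Gsdmc4* were also summed, and the sum is called the summed *Gsdmc* copies. The genes were chosen with the difference between treated and control mice already known, so the values of the 5 genes in that comparison are given as a description, with no test.

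The study asked what inhibition of EZH2, the histone methyltransferase that deposits the repressive mark H3K27me3, does to the colon in a mouse model of Lynch syndrome. All mice, control and treated, were of the same engineered strain on a Western-style diet, with a conditional deletion driven by *Villin-Cre*, which is active in intestinal epithelium, and a humanized *TgfβRII* knocked in. Crypts of 3 control mice, given captisol in PBS by tail vein, were compared with crypts of 3 mice given the EZH2 inhibitor GSK503 by the same route at 200 μg/kg, with 1 library per mouse. The age of the mice at collection is not given in the sources used here, and both groups carry the deletion and the knockin, so no group without them was compared.

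Gasdermins are proteins whose amino-terminal part, once a protease has cut the molecule, inserts into membranes and forms pores. The pores release cytokines of the IL-1 family and can end in pyroptosis, a lytic form of cell death. *Gsdmd* is the gasdermin cut by inflammatory caspases, *Gsdme* is another widely expressed member, and the *Gsdmc* genes are a group of neighbouring copies in the mouse that intestinal epithelial cells express and that the type 2 cytokines IL-4 and IL-13 are known to raise.

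In GRCm39 all listed *Gsdmc* copies are protein-coding genes on the minus strand of chromosome 15. *Gsdmc2* (ENSMUSG00000056293) lies at chr15:63696195-63717026, *Gsdmc3* (ENSMUSG00000055827) at chr15:63729573-63750407 and *Gsdmc4* (ENSMUSG00000055748) at chr15:63763113-63784146. *Gsdmd* (ENSMUSG00000022575) is on the plus strand farther along the same chromosome, at chr15:75733974-75739257. *Gsdme* (ENSMUSG00000029821) is on the minus strand of chromosome 6, at chr6:50165868-50240842.

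The copies are nearly the same sequence, which bears on how well reads of 76 bases can be assigned to them. Each has a coding sequence of 1440 bases in 11 coding exons. *Gsdmc2* and *Gsdmc3* were 97.1% identical over the coding sequence, and each was 93.0% identical to *Gsdmc4*. *Gsdmc* was 82.8% to 83.8% identical to the copies, whereas *Gsdmd* and *Gsdme* were 47.2% to 51.5% identical to the *Gsdmc* genes. These identities count alignment gaps as differences. Over bases aligned without gaps, *Gsdmc* was 87.0% to 87.5% identical to the copies, and *Gsdmd* and *Gsdme* were 58.3% to 62.2% identical to the *Gsdmc* genes. Of all stretches of 76 bases in the canonical transcript, 34.7% in *Gsdmc2*, 37.0% in *Gsdmc3* and 28.1% in *Gsdmc4* occur without any difference in another of the transcripts compared. None of the 1900 stretches of *Gsdmd* and none of the 2165 of *Gsdme* do. A read from a shared stretch can be divided between copies by estimation only, unless its mate in the pair lies where the copies differ. These percentages do not take the mate into account. The values of the single copies are thus less certain than their sum, and reads of *Gsdmc*, 11.1% of whose stretches are shared with the copies, may be among them.

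Coding sequence where the copies cannot be told apart is shown first, since a read from it does not by itself name its copy. The first 76 coding bases are the same in all 3 copies, at chr15:63707717-63707792 in exon 1 of *Gsdmc2*, at chr15:63741071-63741146 in exon 2 of *Gsdmc3* and at chr15:63774704-63774779 in exon 2 of *Gsdmc4*, all on the minus strand.
Gsdmc2, Gsdmc3 and Gsdmc4: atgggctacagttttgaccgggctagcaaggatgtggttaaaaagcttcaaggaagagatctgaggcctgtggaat

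Among 640 windows of this length that lie within single exons of all 3 copies, 188 were the same in all of them. The window with the most differences, 16 alignment columns, is shown next because a read from it does name its copy. It lies at chr15:63698683-63698758 in exon 8 of *Gsdmc2*, at chr15:63732113-63732188 in exon 9 of *Gsdmc3* and at chr15:63765630-63765705 in exon 9 of *Gsdmc4*, and capitals mark the columns in which the copies differ.
Gsdmc2: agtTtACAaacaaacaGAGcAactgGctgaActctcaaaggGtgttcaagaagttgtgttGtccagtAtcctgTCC
Gsdmc3: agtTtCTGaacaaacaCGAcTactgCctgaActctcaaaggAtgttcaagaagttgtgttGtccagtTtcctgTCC
Gsdmc4: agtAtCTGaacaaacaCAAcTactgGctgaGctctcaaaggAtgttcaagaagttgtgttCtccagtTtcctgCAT

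The 6 libraries held an estimated 108162847 to 135085026 counts each, at which 3 counts of a gene correspond to a value of 0.0228 to 0.0271; these figures cover counting error only. Levels below are the deposited values, estimated counts scaled by TMM. These sum to 975566 to 982686 per control library and to 1035854 to 1076042 per GSK503 library, with no overlap between the groups. Epithelial markers (*Krt8*, *Krt18*, *Epcam*, *Cldn7*, *Cdh1* and *Vil1*) summed to 9195 to 10189 in control and 9875 to 11293 in GSK503-treated mice, in keeping with the label of colonic crypts, whereas the detected squamous epithelium markers summed to at most 5.32 in any library. The libraries also divided by sex: *Xist*, expressed from the inactive X chromosome of females, was at 0.419 to 0.936 in the control and 825 to 1236 in the GSK503 libraries, and the Y-linked *Uty* was at 42.5 to 53.7 and 0.670 to 1.08. All control libraries thus carried the male and all GSK503 libraries the female pattern, and in every comparison below sex and treatment cannot be told apart.

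*Gsdmc4*, the copy with the highest mean value, was at 739, 355 and 475 in control mice 1 to 3 and at 1972, 2461 and 1687 in GSK503-treated mice 1 to 3. Every treated mouse was above every control mouse, with the lowest treated value 2.28 times the highest control value. The means were 523 ± 196 (SD, n = 3) and 2040.3 ± 391 (SD, n = 3), 3.90-fold higher in treated mice, with a log2FC of 2.01 (SE 0.24).

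*Gsdmc2* was at 714, 347 and 416 in control mice and at 1719, 2240.3 and 1256 in GSK503-treated mice. The groups did not overlap, and control mouse 1 was the highest and control mouse 2 the lowest of the controls, the same order as for *Gsdmc4*. The means were 492 ± 195 and 1738 ± 493 (SD, n = 3 each), 3.53-fold higher in treated mice, with a log2FC of 1.85 (SE 0.27).

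*Gsdmc3* was the least abundant of the listed copies. It was at 168, 79.3 and 87.3 in control mice and at 288, 437 and 272 in GSK503-treated mice, again with no overlap. The means were 112 ± 49.3 and 332 ± 91.1 (SD, n = 3 each), a 2.98-fold higher level in treated mice with a log2FC of 1.63 (SE 0.27).

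The summed copies, which do not depend on how reads were divided between them, were at 1621, 781 and 979 in control mice and at 3979.9, 5139 and 3215 in GSK503-treated mice. The lowest treated mouse was at 1.98 times the highest control mouse, while mice of the same group differed by up to 2.08-fold among controls and 1.60-fold among treated mice. The means were 1127 ± 439 and 4111 ± 969 (SD, n = 3 each), or 3.65-fold higher, with a log2FC of 1.91 (SE 0.37 from the spread of the sums). This SE is not on the same footing as those of the single copies, which came from limma. From their own spread the SE was 0.35 for *Gsdmc4*, 0.40 for *Gsdmc2* and 0.40 for *Gsdmc3*. The copies together made up 0.0798% to 0.165% of all values in a control library and 0.310% to 0.478% in a GSK503 library. In RNA from whole crypts, more cells that express these genes and more RNA per cell cannot be told apart.

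*Gsdmd*, the gasdermin of the inflammasome pathway, was at 132, 122 and 114 in control mice and at 123, 128 and 129.8 in GSK503-treated mice. The groups overlapped, with the highest and the lowest value both in the control group. The means were 123 ± 8.75 and 127 ± 3.56 (SD, n = 3 each), with a log2FC of 0.05 (SE 0.08), less than the spread between mice.

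*Gsdme* was at 17.8, 19.4 and 22.5 in control mice and at 19.5, 17.3 and 17.3 in GSK503-treated mice. These groups also overlapped, and the means of 19.9 ± 2.36 and 18.1 ± 1.27 (SD, n = 3 each) gave a log2FC of -0.13 (SE 0.12).

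**Figure D1:**
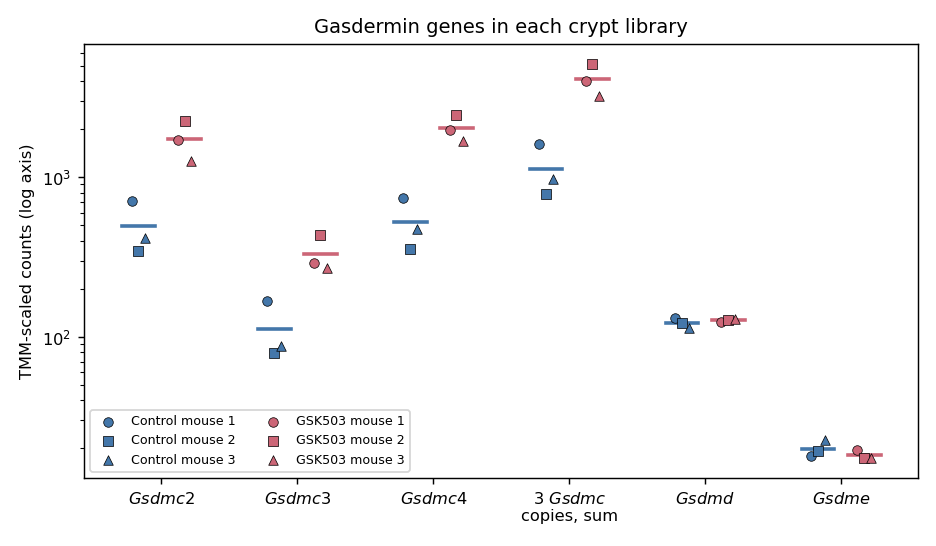
Level of each gasdermin gene and of the summed *Gsdmc* copies in each of the 6 crypt libraries, as deposited TMM-scaled counts on a log axis, with 1 point per mouse and bars at the group means. All GSK503 points of *Gsdmc2*, *Gsdmc3* and *Gsdmc4* lie above all control points, while those of *Gsdmd* (114 to 132) and *Gsdme* (17.3 to 22.5) overlap.

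All treated libraries were thus above all control libraries for 3 of the 5 listed genes. Over all 16670 genes tested the same pattern held for 9.84% of genes in this direction and for 9.22% in the opposite direction; since the genes were chosen on this comparison, nothing is read from the difference. Ranked from the highest log2FC among the genes tested, *Gsdmc4* stood at 35, *Gsdmc2* at 42 and *Gsdmc3* at 60, with *Gsdmd* at 6532 and *Gsdme* at 11878. The median log2FC was 1.63 over the 5 genes and -0.01 over all genes tested.

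Per kilobase of canonical transcript, the scale on which genes can be set beside each other, *Gsdmc4* and *Gsdmc2* were the highest in control mice at 251 ± 94.2 and 248 ± 98.4, in units of the deposited value per kilobase (SD, n = 3 each). Their ranges overlapped and *Gsdmc2* was the higher in control mice 1 and 2, so their order is not resolved. *Gsdmd* followed at 62.0 ± 4.43 and *Gsdmc3* at 51.2 ± 22.6, again with overlapping ranges of 57.9 to 66.7 and 36.4 to 77.2, and *Gsdme* was the lowest at 8.88 ± 1.05. In GSK503-treated mice *Gsdmc4* was at 979 ± 188 and *Gsdmc2* at 878 ± 249 on this scale; their ranges overlapped, although *Gsdmc4* was the higher within each treated library. *Gsdmc3* at 153 ± 41.8 then lay above *Gsdmd* at 64.3 ± 1.80 in every treated mouse, and *Gsdme* was at 8.06 ± 0.566.

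The balance within the family differed between the groups. The ratio of the summed copies to *Gsdmd*, taken within each library and so free of scaling between libraries, was 12.3, 6.42 and 8.56 in control mice, against 32.4, 40.1 and 24.8 after GSK503. The summed copies were 84.7% to 91.6% of the summed value of the 5 genes in control mice and 95.6% to 97.2% in treated mice.

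Among the copies themselves the proportions differed little between groups compared with the change in their sum. *Gsdmc2* made up 42.5% to 44.4% of the summed copies in control mice and 39.1% to 43.6% in GSK503-treated mice, and *Gsdmc4* 45.5% to 48.5% and 47.9% to 52.5%, both with overlapping ranges. The share of *Gsdmc3* was 10.4%, 10.2% and 8.92% in control mice and 7.24%, 8.51% and 8.45% in treated mice, with no overlap. The ratio of *Gsdmc4* to *Gsdmc3* was likewise 4.39 to 5.44 in control and 5.63 to 6.84 in treated mice. *Gsdmc3* is also the copy with the largest part of its transcript shared with others, and the part that read assignment plays in these shares was not tested.

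Genes in or near the cluster that are no members were tested with limma across all 16670 genes and Benjamini-Hochberg adjustment. A gene counted as called when its adjusted p was below 0.05 and its log2FC exceeded 0.25 in size; on this rule 83 genes (0.498%) were called higher and 24 (0.144%) lower in treated mice. With libraries scaled to equal totals, 82 genes were called higher and 178 lower, and the median log2FC was then -0.12. The p-values and limma SE rest on the spread between these mice after limma drew each gene's variance toward an intensity trend over all genes. Fold changes are on the scale of log2(value + 0.1), which understates changes of low genes.

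*Gsdmcl2*, a noncoding gasdermin-like gene between *Gsdmc3* and *Gsdmc4* at chr15:63752546-63762361 on the plus strand, was at 29.8, 12.2 and 26.0 in control mice and at 88.6, 109 and 68.3 in GSK503-treated mice. It rose with a log2FC of 2.04 (SE 0.30, limma adjusted p = 0.0182). The call was lost without GSK503-treated mouse 1 (adjusted p = 0.0574) or mouse 2 (adjusted p = 0.107), with the replicate number as a block (adjusted p = 0.0862) and without the intensity trend of the limma fit (adjusted p = 0.214). Its level was 3.43% to 5.48% of that of *Gsdmc4* in control and 4.05% to 4.49% in treated mice. It does not overlap the coding copies, but it resembles them and the strand setting of the counting is not given in the sources used here, so its counts cannot be fully told apart from theirs.

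The pseudogene *Gsdmcl-ps*, beyond *Gsdmc4* at chr15:63787629-63797515, was at 2.81, 1.71 and 2.97 in control mice and at 10.4, 14.5 and 5.28 in treated mice. All treated values were above all control values, with a log2FC of 1.89 (SE 0.35), but its limma adjusted p of 0.0505 did not pass the threshold. Adding both genes to the summed copies left the log2FC at 1.91.

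*Gsdma*, a gasdermin of skin and upper gut at chr11:98555177-98568534, was barely detected. It was at 1.10, 0.525 and 0.622 in control mice and at 0.322, 0.327 and 0.0499 in treated mice, with a log2FC of -1.44 (SE 0.51, limma adjusted p = 0.262). *Gsdma2*, *Gsdma3*, *Gsdmcl1* and *Pjvk* were not analysed here.

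The difference at the cluster was set beside its neighbours on the chromosome. The *Gsdmc* cluster, from *Gsdmc* to *Gsdmcl-ps*, spans chr15:63647817-63797515, and 3 genes within 1 Mb of it were tested. *Cyrib*, an inhibitor of RAC1 signalling whose annotated end lies 2.08 kb from the cluster, was at 36.9, 33.4 and 40.6 in control mice and at 38.2, 36.7 and 35.8 in GSK503-treated mice. Its log2FC was 0.00 (SE 0.09, limma adjusted p = 0.996). *Asap1*, at a log2FC of 0.31 (SE 0.13, limma adjusted p = 0.335), and *Adcy8*, at 0.69 (SE 0.79, limma adjusted p = 0.76), were not called either. Of these 3 genes 0 were called by limma and 1, *Asap1*, had an unadjusted p below 0.05; on the side of *Gsdmc* no gene passed the filter on low values.

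**Figure D2:**
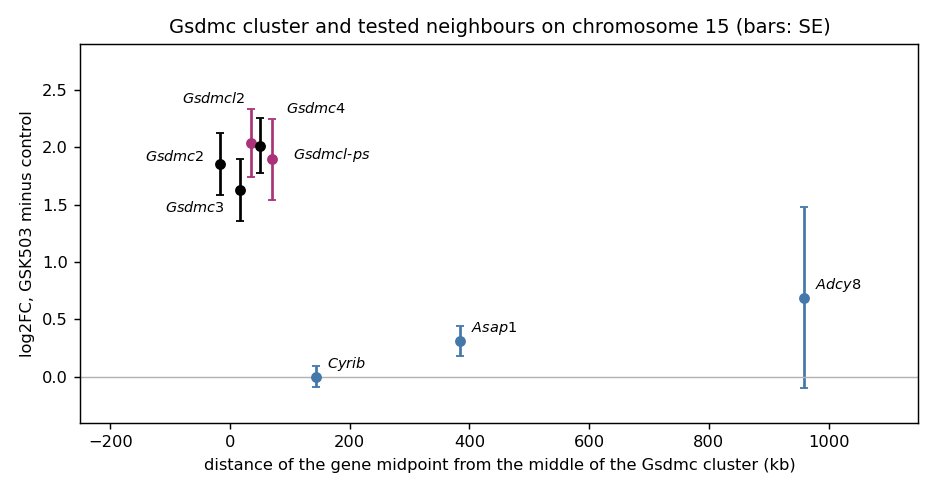
log2FC between GSK503-treated and control mice (y axis; bars, limma SE; n = 3 mice per group) against the distance of each gene's midpoint from the middle of the *Gsdmc* cluster in kb (x axis). The copies and the gasdermin-like genes between and beside them lie between 1.63 and 2.04, and *Cyrib*, the nearest tested gene outside the cluster, lies at 0.00.

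A promoter is shown for *Gsdmc3*, since the copies differed between the groups in the same direction; RefSeq promoter sequence (table build GRCm38.p6) was matched for *Gsdmc3* and *Gsdme*, and not used here for *Gsdmc*, *Gsdmc2*, *Gsdmc4* and *Gsdmd*. The 250 bases before the start of *Gsdmc3* match GRCm39 in a single place without any difference, at chr15:63750408-63750657 on the minus strand. Capitals mark the letters TATATAA, chosen after the sequence was seen.
Gsdmc3 upstream: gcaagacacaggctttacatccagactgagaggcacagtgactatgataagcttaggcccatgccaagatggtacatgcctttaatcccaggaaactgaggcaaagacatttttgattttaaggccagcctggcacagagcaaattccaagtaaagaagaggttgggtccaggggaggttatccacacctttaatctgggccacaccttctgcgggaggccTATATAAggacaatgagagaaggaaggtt

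The letters TATATAA, which resemble a core promoter element, begin at position -29 relative to the start and occur on either strand in 3.22% of 32544 promoters of the same length. The STAT6-type pattern TTCNNNNGAA (in 6.98% of promoters), the STAT pattern TTCNNNGAA (8.33%) and TATAAA (13.6%) had no match in the *Gsdmc3* window on either strand. These patterns are letters in a window, not binding sites, and TATATAA overlaps TATAAA where a further A follows it.

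The genes around the gasdermins were taken from 7 lists of 64 genes, of which 53 were tested: other gasdermin genes, the proteases that cut gasdermins, inflammasome sensors, IL-1 family cytokines, membrane rupture and repair, lipidation and transcription of gasdermins, and type 2 cytokine signalling. Of the 53, 2 were called higher by limma, *Gsdmcl2* and *Retnlb*, and 0 lower, that is 3.77% called against 0.642% of all genes. The lists were chosen with earlier results of these data known, so nothing is read from that difference. *Gsdmcl2* lies within the cluster. The copies shared stretches of read length only with each other and with *Gsdmc*, among the transcripts compared. Whether reads of the copies are among the counts of *Gsdmcl2* was not tested on the reads themselves. Only 1 gene was called with the replicate block or without GSK503-treated mouse 1 or 2, and 0 without the intensity trend. An unadjusted p below 0.05 was found for 9 of the 53 genes, beside 13.3% of all genes tested, and the median log2FC of the lists was -0.05.

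Among the proteases 0 of 8 tested genes were called by limma and 2, *Gzmb* and *Casp4*, had an unadjusted p below 0.05; the log2FC was below 0 for 7 of the 8, with a median of -0.13. *Gzmb*, granzyme B of cytotoxic lymphocytes, was at 9.64, 5.26 and 5.88 in control mice and at 3.64, 4.09 and 3.34 in GSK503-treated mice, with a log2FC of -0.84 (SE 0.24, limma adjusted p = 0.158). *Gzma*, granzyme A, which cuts gasdermin B in humans, was at a log2FC of -0.59 (limma adjusted p = 0.602). *Casp4*, the caspase that senses intracellular lipopolysaccharide and cuts gasdermin D, was at 50.9 to 53.4 in control and 42.3 to 48.9 in treated mice (log2FC -0.22, SE 0.08, limma adjusted p = 0.283). *Casp1*, the inflammasome caspase that cuts gasdermin D, was at 163 to 191 in control and 156 to 169 in treated mice (log2FC -0.16, SE 0.08, limma adjusted p = 0.452). *Casp8*, which can cut gasdermin C, was at 105 to 123 and 99.7 to 113 (log2FC -0.10, SE 0.08, limma adjusted p = 0.649).

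Of 12 tested inflammasome sensors and adaptors, 0 were called by limma and 0 had an unadjusted p below 0.05; 11 had a log2FC below 0, with a median of -0.13 against -0.01 over all genes. *Mefv*, which encodes pyrin, had the largest difference, a log2FC of -0.74 (limma adjusted p = 0.583). It was barely detected, at 0.346 to 0.487 in control and 0.0678 to 0.541 in treated mice. The sensor *Nlrp1b* followed at -0.25 (limma adjusted p = 0.418). The 7 IL-1 family genes gave 0 calls and 0 with an unadjusted p below 0.05. The log2FC was above 0 for 3 and below 0 for 4. *Il1a* was at a log2FC of -0.62 (limma adjusted p = 0.669) and *Il1b* at -0.45 (limma adjusted p = 0.803). Both were low, at most 0.200 and 1.83 in any library. *Il18* was at 22.5 to 26.8 in control and 19.6 to 27.2 in treated mice (log2FC -0.04, SE 0.14, limma adjusted p = 0.93). These 3 are cytokines that leave cells through gasdermin pores or upon lysis.

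Among 8 genes of membrane rupture and repair 0 were called by limma and 1 had an unadjusted p below 0.05. *Ninj1*, which ruptures the plasma membrane after pores have formed, was at 14.8, 13.1 and 10.4 in control mice and at 16.6, 17.5 and 14.4 in treated mice (log2FC 0.35, SE 0.15, limma adjusted p = 0.35). Its paralog *Ninj2*, barely detected at no more than 0.308 in any library, had a log2FC of -0.85 (limma adjusted p = 0.528). Of 6 genes of lipidation and transcription 0 were called and 1 had an unadjusted p below 0.05. That gene was *Irf2*, a transcription factor of *Gsdmd*, at 54.3, 44.3 and 64.9 in control mice and at 44.0, 36.6 and 43.4 in treated mice (log2FC -0.39, SE 0.14, limma adjusted p = 0.258). *Rela*, the p65 subunit of NF-κB, had a log2FC of 0.15 (limma adjusted p = 0.547).

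Type 2 cytokine signalling was represented by 9 tested genes, of which 1 was called. *Retnlb*, which encodes the goblet cell protein RELMβ and is a known target of IL-13, was at 218, 125 and 116 in control mice and at 564, 586 and 484 in GSK503-treated mice. It rose with a log2FC of 1.88 (SE 0.21, limma adjusted p = 0.0042), a call lost only without the intensity trend (adjusted p = 0.171) among the alternatives run. *Socs1*, a feedback inhibitor of cytokine receptors, was at 1.90, 3.01 and 2.27 in control and 4.63, 2.94 and 3.74 in treated mice (log2FC 0.64, SE 0.26, limma adjusted p = 0.329). The receptor chain *Il4ra* (log2FC -0.13, SE 0.13, limma adjusted p = 0.719) and the transcription factor *Stat6* (log2FC 0.00, SE 0.07, limma adjusted p = 0.985) were not called, and *Il4* and *Il13* themselves were not analysed here.

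**Figure D3:**
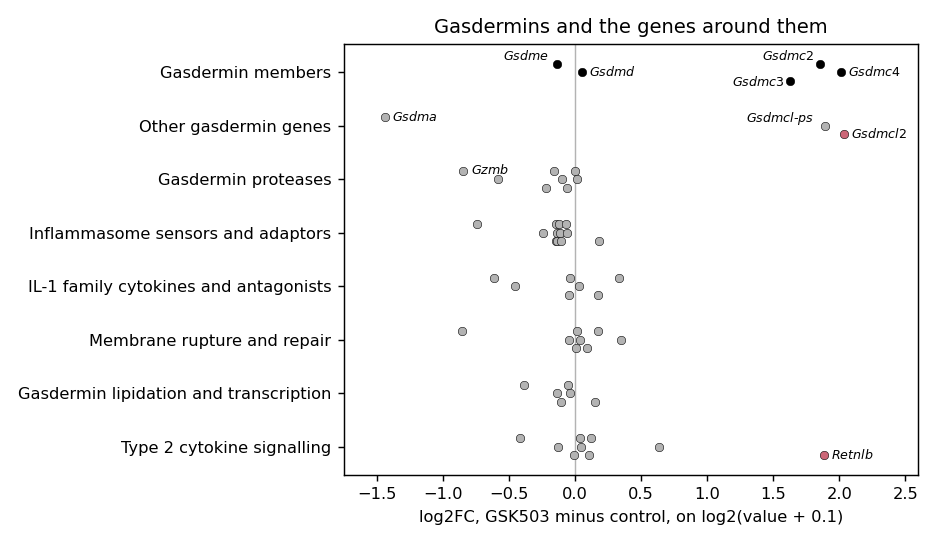
log2FC between GSK503-treated and control mice (x axis, n = 3 mice per group) for the gasdermin genes and the 7 lists of genes around them, with 1 point per gene; black points are the members, which were not tested, red points the genes called by limma and grey points those not called. The called genes, *Gsdmcl2* and *Retnlb*, lie at 2.04 and 1.88, beside *Gsdmc2*, *Gsdmc3* and *Gsdmc4* at 1.63 to 2.01.

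The tested genes whose profile was most like that of the summed copies were found among 16662 genes that are no gasdermin, by the root mean square difference between log2 profiles after each was centred on its mean over the 6 libraries. Such a choice favours genes that differ between the groups as the copies do. The log2FC and adjusted p of the genes so found are therefore a description and no separate support. *Retnlb* was the nearest, at 0.176 log2 units, where the median gene was at 1.05. *9030619P08Rik* followed at 0.228 (log2FC 1.70, SE 0.19, limma adjusted p = 0.0054) and *Fam221a* at 0.277 (log2FC 1.51, SE 0.20, limma adjusted p = 0.0136). *Slc29a4*, a plasma membrane monoamine transporter, was at 0.288 (log2FC 1.75, SE 0.28, limma adjusted p = 0.0286). Without the intensity trend all 3 calls were lost (limma adjusted p = 0.117 for *9030619P08Rik*, 0.166 for *Fam221a* and 0.19 for *Slc29a4*), and with the replicate block those of *Fam221a* (0.0678) and *Slc29a4* (0.108). The call of *Fam221a* was also lost without control mouse 2 (0.059), control mouse 3 (0.0537) or GSK503-treated mouse 2 (0.0781), and that of *Slc29a4* without control mouse 2 (0.065), control mouse 3 (0.072), GSK503-treated mouse 1 (0.062) or GSK503-treated mouse 2 (0.179).

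Of the 8 nearest genes, the other 4 did not pass the threshold of the limma test. These were *Cib3* at a difference of 0.279 (adjusted p = 0.121), the olfactory receptor gene *Olfr652* at 0.286 (adjusted p = 0.0889), the secretoglobin gene *Scgb2b10* at 0.289 (adjusted p = 0.0971) and *Bhlha15*, which encodes the secretory cell transcription factor MIST1, at 0.299 (adjusted p = 0.0505). *Cib3*, *Olfr652* and *Scgb2b10* were low, at most 1.09, 1.31 and 0.729 in any library. The ninth gene, at 0.302, was close to the eighth, so the list has no sharp end. On the same measure *Gsdmcl2* was at 0.237 and *Gsdmcl-ps* at 0.334, whereas *Gsdmd* was at 0.988 and *Gsdme* at 1.11. With 6 libraries in 2 groups these distances mostly describe the step between the groups.

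**Figure D4:**
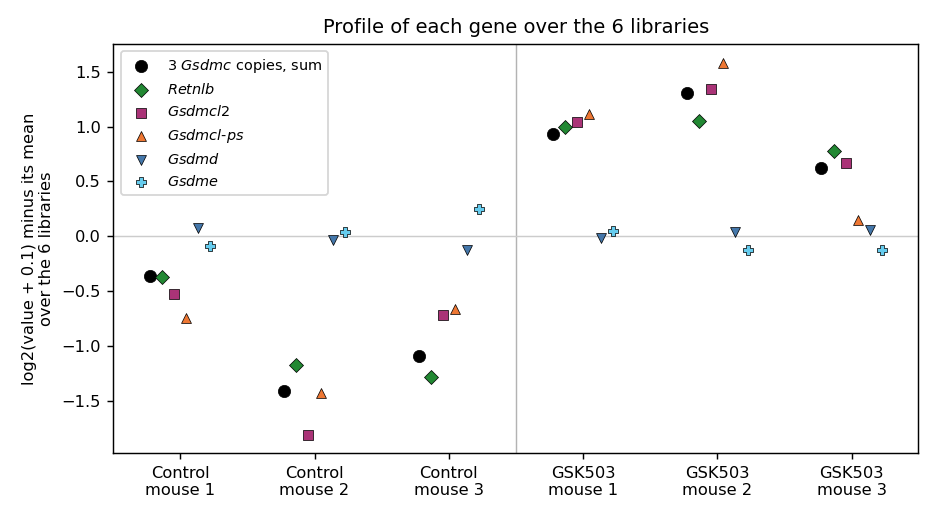
log2(value + 0.1) of each gene minus its mean over the 6 libraries (y axis) in each crypt library (x axis). The summed *Gsdmc* copies, *Gsdmcl2*, *Gsdmcl-ps* and *Retnlb* are below their mean in all 3 control mice and above it in all 3 GSK503-treated mice; *Gsdmd* and *Gsdme* stay close to 0.

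Markers of cell types were set beside the copies because colonic crypts hold several. Goblet cell markers were higher in treated mice, as the copies were: their sum was 19098, 10751 and 11449 in control mice and reached 33193, 48833 and 51488 in those given GSK503. All 7 goblet cell markers that the table held (*Muc2* was not analysed here) were higher in every treated mouse, beside 9.84% of all genes tested. Limma called 4 of the 7 higher, *Tff3*, *Clca1*, *Spdef* and *Spink4*, beside 0.498% of all genes. The markers were added after values were seen, so nothing is read from the difference from these shares. *Clca1*, a secreted goblet cell protein, was at 7984, 3147 and 3460.3 in control mice and at 15898, 25628 and 30267 in treated mice (log2FC 2.38, SE 0.38, limma adjusted p = 0.0294). Control mouse 1 was the highest control both for the goblet cell sum and for the summed *Gsdmc* copies. Most single markers were also highest there. However, *Zg16* (799, 922 and 746 in control mice 1 to 3) and *Spdef* (79.7, 90.3 and 65.0) were highest in control mouse 2, where the copies were lowest. Among treated mice the copies were highest in mouse 2, as were *Fcgbp*, *Agr2* and *Spdef*. The other goblet cell markers went otherwise: *Tff3*, *Clca1* and *Zg16* were highest in treated mouse 3 and *Spink4* in treated mouse 1. The goblet cell sum was highest in treated mouse 3 through *Clca1*, its largest member there.

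Mature colonocyte markers summed to 6396 to 7165 in control and 5895 to 9382 in treated mice, with 0 of 10 genes called by limma. *Car1*, a large part of this sum, was at 4019, 2069 and 954 in treated mice 1 to 3. The log2FC was above 0 for 9 of the 10, with a median of 0.14, but 0 were higher in every treated mouse. An unadjusted p below 0.05 was found for 2, beside 13.3% of all genes tested. Tuft cell markers summed to 24.7 to 36.3 and 45.5 to 51.7, with 0 of 5 tested genes called. Although not called, 4 of the 5 were higher in every treated mouse, beside 9.84% of all genes tested. The tuft cell cytokine *Il25* was at 0 to 0.0995 in control and 0 to 0.191 in treated mice. Enteroendocrine markers summed to 199 to 247 and 125 to 160. Limma called 3 of the 6 lower, *Chga*, *Chgb* and *Gcg*, beside 0.144% of all genes. Crypt base markers summed to 1200.1 to 1365 and 989 to 1085 with 0 genes called by limma; most of this sum is the proliferation gene *Mki67* and the transporter gene *Slc12a2*, while the stem cell markers *Lgr5* (log2FC 0.02, SE 0.23) and *Ascl2* (log2FC 0.32, SE 0.26) overlapped between groups. The part of goblet, mature colonocyte, tuft, enteroendocrine or crypt base cell abundance in the levels of the *Gsdmc* copies was not tested.

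Markers of cells other than epithelium varied widely within the groups. Smooth muscle markers summed to 20.9, 90.1 and 46.2 in control mice and to 4.52, 4.26 and 122 in GSK503-treated mice, and fibroblast, macrophage and B cell markers were likewise highest, within the treated group, in mouse 3. The summed *Gsdmc* copies were the lowest of the treated group in this mouse, at 3215. Without it the log2FC of the summed copies was 2.07. T cell markers were low in all libraries, at 9.87 to 14.9 in control and 8.68 to 11.2 in treated mice. Posterior Hox genes, which mark position along the colon, summed to 150.1 to 174 in control and 175 to 202 in treated mice with 0 called by limma, and the part of sampled position was not tested.

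**Figure D5:**
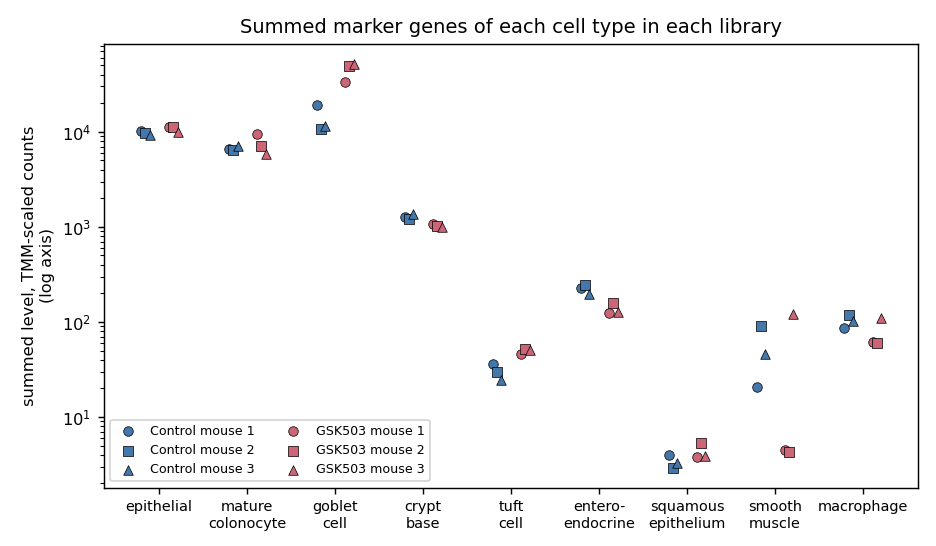
Summed level of the marker genes of each cell type in each of the 6 crypt libraries, as deposited TMM-scaled counts on a log axis, with 1 point per mouse. Goblet cell markers lie between 10751 and 19098 in control and between 33193 and 51488 in GSK503-treated mice, and smooth muscle markers are highest in GSK503-treated mouse 3 (122) and lowest in GSK503-treated mice 1 and 2 (4.52 and 4.26).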

How the data were processed

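Total RNA of colonic crypts was sequenced as paired-end 76-base reads from a stranded total RNA library kit, in 3 control and 3 GSK503-treated mice. Per the labels and the methods of the authors, STAR and GRCm39 served for alignment, RSEM for the estimated count of each gene and TMM for scaling. The deposited signal of a gene is therefore its estimated count divided by a TMM-scaled library size; between 75.2% and 78.0% of a library's values were whole multiples (within 0.01 counts) of its step, which gave the estimated library totals. Because values are scaled and not whole counts, limma (version 3.58.1, R 4.3.3) was the main test: lmFit and eBayes with an intensity trend on log2(value + 0.1), over 16670 genes with at least 0.1 in at least 3 mice, with Benjamini-Hochberg adjustment. For the members and the summed copies limma or the spread of the sums gave the SE only.

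Members, lists and tests were chosen with earlier results of these data known. Named were every member, other listed gasdermin genes, in each list the genes called and the 2 largest differences, the nearest tested neighbour and called genes within 1 Mb, and the 8 nearest profiles. *Asap1*, *Adcy8*, *Casp1*, *Casp4*, *Casp8*, *Il18*, *Il4ra*, *Stat6*, *Clca1* and the markers by cell type were added for their known roles or position after values were seen. Positions, transcript lengths and coding sequences came from GENCODE for GRCm39, and promoters from RefSeq. Samples that share a replicate number did not deviate together (r of 0.03, -0.13 and -0.12), so the numbers were not taken as pairs. Alternatives were the pseudocount, the filter, equal library totals, a replicate block, no intensity trend, limma-voom on recovered counts, another threshold and leaving out each mouse. Some items of the design and the lists are not reported here. Organoid, single-cell and ChIP-Seq data were not analysed here.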

Additional observations from a re-analysis of the deposited data

How the results depend on the processing

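When each mouse was left out in turn, the log2FC of the summed *Gsdmc* copies ranged from 1.68 to 2.21. That of *Gsdmc2* ranged from 1.63 to 2.15, that of *Gsdmc3* from 1.41 to 1.96 and that of *Gsdmc4* from 1.77 to 2.30. All treated values of these were above all control values, so leaving out a mouse could not change the sign. The ranges describe the size of the difference only. Without single mice *Gsdmd* ranged from 0.00 to 0.11 and *Gsdme* from -0.21 to -0.04. Scaling each library to the same total, which moves the median of all genes to -0.12, put *Gsdmd* at -0.061. Summing without *Gsdmc* gives the same value by construction, since *Gsdmc* was not analysed here. The number of genes called depends on the settings: 107 (83 higher, 24 lower) became 260 with equal library totals (82 higher, 178 lower), 33 with the replicate number as a block, 16 with no intensity trend, 328 at an adjusted p of 0.1, and 29 to 216 without single mice (44 without control mouse 2, 49 without control mouse 3, 63 without GSK503-treated mouse 1, 29 without mouse 2 and 216 without mouse 3). Of the lists, 2 genes called became 1 with the replicate block, 0 with no intensity trend and 1 to 3 without single mice. *Retnlb* lost its call only with no intensity trend (adjusted p = 0.171; range over alternatives 0.0001 to 0.171). *Gsdmcl2* lost it with the block (0.0862), with no intensity trend (0.214) and without GSK503-treated mouse 1 (0.0574) or 2 (0.107), with a range of 0.0126 to 0.214, and *Gsdmcl-ps* passed with equal library totals (0.0447) and without GSK503-treated mouse 3 (0.0101). *Cyrib* changed sign, to -0.11 with equal library totals, -0.0016 with limma-voom and, without single mice, to between -0.069 (control mouse 2) and 0.071, with -0.023 without GSK503-treated mouse 1; *Il1b* ranged from -1.23 to 0.059 (without GSK503-treated mouse 2). The cause was not tested. Depth limits the lowest genes, such as *Gsdma* and *Il25*, more than the gasdermin members.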
